A study of Mus musculus with 8 samples.

Results

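Transcripts of 9 genes of cardiac fuel choice were followed across every heart library of the study, chosen by symbol from the deposited table: the nuclear receptor gene Ppara and its coactivator gene Ppargc1a, the target genes Pdk4, Angptl4 and Acot1, the fatty acid uptake genes Lpl, Cd36 and Fabp3, and the glucose transporter gene Slc2a4. All 9 of 9 symbols were found, each in 1 row, among 34745 genes of the table, and all 9 were among the 10393 genes tested. Values are FPKM, which divide fragments by gene length and by library depth. None of the 9 genes changed between control hearts and hearts with myocarditis, or between Trim21 knockout and wild-type hearts with myocarditis, by limma at an adjusted p of 0.05.

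The hearts came from mice labelled Balb/c. The control group was 2 wild-type libraries labelled day 0, the WT-EAM group was 3 wild-type libraries labelled day 21 of experimental autoimmune myocarditis (EAM), and the KO-EAM group was 3 TRIM21KO libraries labelled day 21 of the same model. In this model mice are immunized against a peptide of the cardiac alpha myosin heavy chain in complete Freund's adjuvant, and the protocol gives adjuvant with buffer alone to control mice, whereas the labels place the controls at day 0. Day, immunization and any effect of adjuvant therefore cannot be told apart between control and EAM, and names in a second deposited sheet give day 35 for the EAM hearts. TRIM21 is an E3 ubiquitin ligase, and the labels call the knockout only TRIM21KO, without naming the allele. Neither the part of the heart sampled nor whether each library is 1 animal is stated, so p-values measure the spread between libraries, which may be technical.

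The heart draws most of its energy from fatty acids and switches towards glucose under some kinds of stress. The receptor PPARα binds fatty acids and, paired with a retinoid X receptor, turns on genes for their uptake and oxidation, with the coactivator PGC-1α adding to its activity and driving mitochondrial genes. Fatty acids are freed from lipoproteins by lipoprotein lipase at the vessel wall, pass the membrane with the help of CD36 and are carried inside the muscle cell by FABP3, while glucose enters through the insulin-responsive carrier GLUT4.

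Some properties of the libraries bear on what follows. The steps between low FPKM values put the libraries at 14390000 to 16930000 mapped fragments. Trim21 was at 0.0481, 0 and 0.022 FPKM in the knockout libraries, at 2.98, 3.29 and 3.37 FPKM in WT-EAM and at 1.98 and 2.18 FPKM in control, as the labels say. The mean log2(FPKM + 1) of 8 atrial markers was 6.48 to 7.06 in WT-EAM 2, KO-EAM 1 and KO-EAM 2, against 1.74 to 4.23 in the other 5 libraries. Cardiomyocyte markers, which define the tissue, were abundant in all libraries, their summed FPKM over 10 genes being 22634 and 23305 in control, 17870.3 to 21766 in WT-EAM and 18806 to 19961 in KO-EAM. All values are from whole tissue, in which fewer cells of a type and less RNA per cell cannot be told apart.

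The levels of the 9 genes fell into separate tiers that held in every library. Fabp3 stood first with a mean of 2596 FPKM over the 8 libraries and a range of 2068 to 3078. Lpl followed at 149 to 229 FPKM, and the ranges of Fabp3 and Lpl did not overlap. Cd36, Pdk4 and Slc2a4 formed the middle tier with mean levels of 73.9, 61.8 and 49.6 FPKM, and their ranges overlapped. Acot1, Angptl4 and Ppargc1a formed a low tier at 4.22, 3.49 and 3.25 FPKM, again with overlapping ranges, and Ppara, at 0.371 to 1.77 FPKM, lay below Ppargc1a in all 8 libraries.

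**Figure D1:**
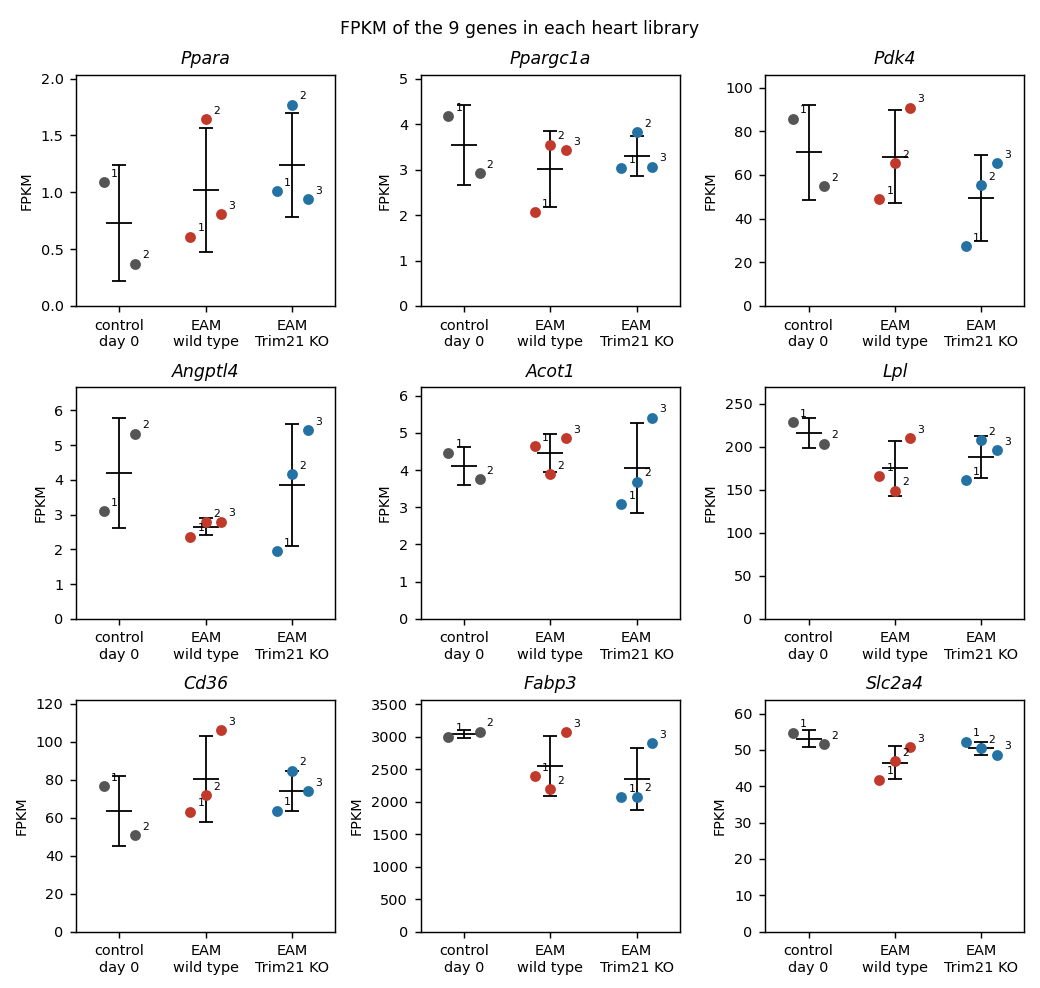
FPKM (linear axis from 0) of the 9 genes in each library; points are libraries numbered as in the labels, and bars give the group mean and SD for control (n = 2), WT-EAM, drawn as EAM wild type (n = 3) and KO-EAM, drawn as EAM knockout (n = 3). The groups overlap for most genes, and Slc2a4 keeps to 41.8 to 54.7 FPKM throughout, whereas Pdk4 runs from 27.5 to 90.9 FPKM.

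Ppara (ENSMUSG00000022383, chr15:85734983-85802819, plus strand, mm10 as for all deposited positions) encodes the receptor itself. It was at 1.09 and 0.371 FPKM in control, at 0.608, 1.64 and 0.807 FPKM in WT-EAM and at 1.01, 1.77 and 0.938 FPKM in KO-EAM. The control libraries differed from each other by more than the group means did, and all groups overlapped. The fitted log2 change of FPKM + 1 was 0.22 (SE 0.26, limma adjusted p = 0.762) in WT-EAM against control and 0.17 (SE 0.23, limma adjusted p = 0.728) in KO-EAM against WT-EAM. Ppara is thinly covered, with about 21 fragments in control 2 and 106 in KO-EAM 2, and at 21 fragments counting error alone is 21.8% of the value. At about 1 FPKM the added pseudocount of 1 also shrinks its fitted changes.

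Profiles of other genes and a trend with gene length were set beside the level of Ppara. The genes whose profile over the 8 libraries was closest to Ppara were Svil, Arid1b and Usp9x, with Pearson r of 0.98, 0.97 and 0.97 on log2(FPKM + 1), values that are a description chosen as the best of 10393 genes. The median deviation of genes with more than 6000 exonic bases from their own means exceeded that of genes under 2000 bases by 0.17 (log2 scale) in KO-EAM 2 and by 0.11 in WT-EAM 2, the libraries with the most Ppara. The same difference was -0.15 in control 2, which had the least Ppara, and -0.17 in WT-EAM 3. Ppara was nevertheless higher in WT-EAM 3, at 0.807 FPKM, than in WT-EAM 1, at 0.608 FPKM with a difference of 0.018. In the remaining libraries the difference was -0.031 to 0.051. Ppara itself has 3836 exonic bases and is in neither length class. The part of this length trend in the Ppara values was not tested.

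Ppargc1a (ENSMUSG00000029167, chr5:51454250-51567726, minus strand), the gene of PGC-1α, was at 4.17 and 2.92 FPKM in control, at 2.06, 3.55 and 3.43 FPKM in WT-EAM and at 3.03, 3.82 and 3.06 FPKM in KO-EAM. Its lowest library was WT-EAM 1 and its highest control 1, and the groups overlapped. Changes were -0.19 (SE 0.20, limma adjusted p = 0.726) in WT-EAM against control and 0.12 (SE 0.17, limma adjusted p = 0.744) in KO-EAM against WT-EAM, on the log2(FPKM + 1) scale. The closest profiles among all tested genes were those of Ndufs1, Sdha and Mccc1, with Pearson r of 0.99, 0.99 and 0.98 over 8 libraries. Ndufs1 encodes a subunit of respiratory complex I, Sdha the flavoprotein of complex II and Mccc1 a mitochondrial carboxylase of leucine breakdown, so all 3 products work in mitochondria. These values too are a description chosen as the best of 10393 genes, and shared regulation was not tested.

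Pdk4 (ENSMUSG00000019577, chr6:5483351-5496309, minus strand) encodes a kinase that switches off the pyruvate dehydrogenase complex and so spares glucose, and it is a well-known target of PPARs and of the glucocorticoid receptor. It was at 85.8 and 54.9 FPKM in control, at 48.8, 65.5 and 90.9 FPKM in WT-EAM and at 27.5, 55.3 and 65.4 FPKM in KO-EAM. KO-EAM 1 was the lowest library and WT-EAM 3 the highest, a range of 3.3-fold, and the groups overlapped. The group means were 70.3 ± 21.9 (SD, n = 2), 68.4 ± 21.2 (SD, n = 3) and 49.4 ± 19.6 FPKM (SD, n = 3). In KO-EAM against WT-EAM the log2 change was -0.505 (SE 0.34, 95% interval -1.27 to 0.26, limma adjusted p = 0.446), and in WT-EAM against control it was -0.05 (95% interval -0.90 to 0.81, limma adjusted p = 0.970). The interval between genotypes thus reached from a fall of more than 2-fold to a small rise. That change was -0.139 without KO-EAM 1, -0.281 without WT-EAM 3 and -0.749 without KO-EAM 3. It was -0.027 without the 3 libraries high in atrial transcripts, where KO-EAM 3 is the only knockout library.

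On the log2(FPKM + 1) scale Pdk4 had the highest within-group SD of the 9 genes, whereas in FPKM over the 8 libraries Ppara (CV 46.4%, range 4.79-fold) and Angptl4 (CV 38.1%) varied more than Pdk4 (CV 32.9%). The within-group SD of Pdk4 was 0.535, larger than that of 97.3% of all tested genes and of 98.4% of the 314 tested genes within 0.5 log2 units of its level. Pdk4 was covered by 1447 to 5101 fragments per library, where counting error is at most 2.63%, well below the spread between its libraries. Its promoter is shown because it is a classic PPAR target with a wide spread at a well-covered level. The window, from RefSeq on GRCm38.p6, is chr6:5496229-5496528 on the minus strand, 250 bases before to 50 after the annotated start, written 5′ to 3′ in lower case because no PPAR element was matched in it.
Pdk4 promoter: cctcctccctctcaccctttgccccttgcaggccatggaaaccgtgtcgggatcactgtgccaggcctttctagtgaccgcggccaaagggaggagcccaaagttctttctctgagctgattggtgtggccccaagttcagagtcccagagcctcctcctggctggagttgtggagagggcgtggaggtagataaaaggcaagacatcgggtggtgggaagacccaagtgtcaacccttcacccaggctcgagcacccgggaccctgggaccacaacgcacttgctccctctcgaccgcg

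Windows of this kind were matched for 6 of the 9 genes, Pdk4, Ppara, Ppargc1a, Cd36, Fabp3 and Acot1. They were searched on both strands for the PPAR element AGGTCANAGGTCA with up to 2 mismatches, for the half-site AGGTCA it is built from, for the ERR element TCAAGGTCA, which holds a half-site, for the E-box CACGTG and for the TATA box TATAAA. The PPAR element was matched in Cd36 alone, against 3.86% of 32851 promoter windows, and the half-site also in Cd36 alone, against 16.3%. None of the 6 windows held the ERR element (0.423% of windows), the E-box (7.15%) or TATAAA (13.6%). A match describes letters in 300 bases and is not a measured binding site.

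Angptl4 (ENSMUSG00000002289, chr17:33773750-33781575, minus strand) encodes a secreted inhibitor of lipoprotein lipase that PPARs and glucocorticoids induce. It was at 3.09 and 5.33 FPKM in control, at 2.37, 2.78 and 2.80 FPKM in WT-EAM and at 1.95, 4.17 and 5.43 FPKM in KO-EAM. Every EAM wild-type library lay below both controls, while the knockout libraries spanned the range of both other groups. The log2 change in WT-EAM against control was -0.48 (SE 0.30, 95% interval -1.16 to 0.19, limma adjusted p = 0.518), which did not pass, and in KO-EAM against WT-EAM it was 0.34 (SE 0.27, limma adjusted p = 0.514). The first of these changes was -0.797 without control 1 and -0.168 without control 2. Its within-group SD of 0.42 exceeded that of 95.2% of tested genes, with a small spread in WT-EAM (2.65 ± 0.24 FPKM, SD, n = 3) and a wide one in the knockout (3.85 ± 1.76 FPKM, SD, n = 3).

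Acot1 (ENSMUSG00000072949, chr12:84009502-84017670, plus strand) encodes a cytosolic thioesterase that splits long-chain acyl-CoA and is induced through PPARα. It was at 4.47 and 3.75 FPKM in control, at 4.64, 3.89 and 4.85 FPKM in WT-EAM and at 3.08, 3.69 and 5.41 FPKM in KO-EAM. The knockout held both the lowest and the highest library, and the groups overlapped, with log2 changes of 0.09 (SE 0.19, limma adjusted p = 0.863) in WT-EAM against control and -0.13 (SE 0.17, limma adjusted p = 0.690) in KO-EAM against WT-EAM. Acot1 and its neighbour Acot2 are close copies: of the 100-base windows of the annotated Acot1 transcripts 9.32% occur unchanged in Acot2 transcripts, and 17.1% of those of Acot2 in Acot1. Reads from such stretches can be assigned to either gene, so the Acot1 level is uncertain, with Acot2 at 11.5 to 21.0 FPKM beside it.

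Lpl (ENSMUSG00000015568, chr8:68880491-68907448, plus strand) encodes lipoprotein lipase. It was at 229 and 204 FPKM in control, at 166, 149 and 210.4 FPKM in WT-EAM and at 161, 208 and 196 FPKM in KO-EAM. The lowest libraries were WT-EAM 2 and KO-EAM 1, and WT-EAM 3 reached into the control range. The log2 change in WT-EAM against control was -0.315 (SE 0.18, 95% interval -0.72 to 0.09), the lowest adjusted p of the 9 genes in that comparison (limma adjusted p = 0.481). In KO-EAM against WT-EAM it was 0.11 (SE 0.16, limma adjusted p = 0.742).

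Cd36 (ENSMUSG00000002944, minus strand), which encodes a fatty acid translocase that is also a scavenger receptor of macrophages and a surface protein of capillaries, was at 76.7 and 50.7 FPKM in control. It was at 63.1, 71.9 and 106 FPKM in WT-EAM and at 63.8, 84.7 and 74.0 FPKM in KO-EAM. WT-EAM 3 was the highest library and control 2 the lowest, and the groups overlapped. Log2 changes were 0.33 (SE 0.25, limma adjusted p = 0.611) in WT-EAM against control and -0.09 (SE 0.23, limma adjusted p = 0.859) in KO-EAM against WT-EAM. Its RefSeq window is shown because it alone held a match to the PPAR element. It lies at chr5:17835847-17836146 on the minus strand (GRCm38.p6), inside the gene's deposited locus of chr5:17781690-17888801, so it belongs to an internal start. Capitals mark the match, TGGCCTCTGACTT, on the opposite strand of the gene from 63 to 51 bases before the start, with 2 mismatches.
Cd36 promoter: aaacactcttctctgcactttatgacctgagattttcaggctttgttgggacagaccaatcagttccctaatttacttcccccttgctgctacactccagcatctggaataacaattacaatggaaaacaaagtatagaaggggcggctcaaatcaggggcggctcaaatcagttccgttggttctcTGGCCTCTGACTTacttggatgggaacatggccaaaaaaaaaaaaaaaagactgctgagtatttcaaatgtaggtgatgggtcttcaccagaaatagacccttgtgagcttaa

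Fabp3 (ENSMUSG00000028773, chr4:130308595-130315463, plus strand) encodes the fatty acid binding protein of heart muscle. It was at 3000.1 and 3078 FPKM in control, at 2394, 2187 and 3068 FPKM in WT-EAM and at 2068, 2078 and 2898 FPKM in KO-EAM. All knockout libraries lay below both controls, whereas WT-EAM 3 was between them. The log2 change in KO-EAM against control was -0.39 (SE 0.19, 95% interval -0.83 to 0.05), the lowest adjusted p of the 9 genes over the 3 comparisons (limma adjusted p = 0.415), and in WT-EAM against control it was -0.27 (SE 0.19, limma adjusted p = 0.580). The 3 libraries high in atrial transcripts were also the 3 lowest in Fabp3. The change between genotypes was -0.12, which did not pass. Without these libraries, where KO-EAM 3 is the only knockout library, it was 0.097. A fit with the atrial score as a covariate gave 0.000586 in WT-EAM against control in place of -0.27. In KO-EAM against control the change stayed negative under all 21 alternatives, from -0.551 to -0.068. The part of atrial tissue in the Fabp3 values was not tested.

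Slc2a4 (ENSMUSG00000018566, chr11:69942539-69948188, minus strand) encodes GLUT4. It was at 54.7 and 51.5 FPKM in control, at 41.8, 46.9 and 50.8 FPKM in WT-EAM and at 52.3, 50.5 and 48.7 FPKM in KO-EAM. WT-EAM lay below control in every library, by little, and the knockout overlapped both groups. The log2 change in WT-EAM against control was -0.19 (SE 0.13, 95% interval -0.48 to 0.10, limma adjusted p = 0.552), and in KO-EAM against WT-EAM 0.12 (SE 0.12, 95% interval -0.14 to 0.38, limma adjusted p = 0.598). Slc2a4 was the steadiest of the 9 genes, with a within-group SD of 0.097, smaller than that of most tested genes: only 13.5% had a smaller one.

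**Figure D2:**
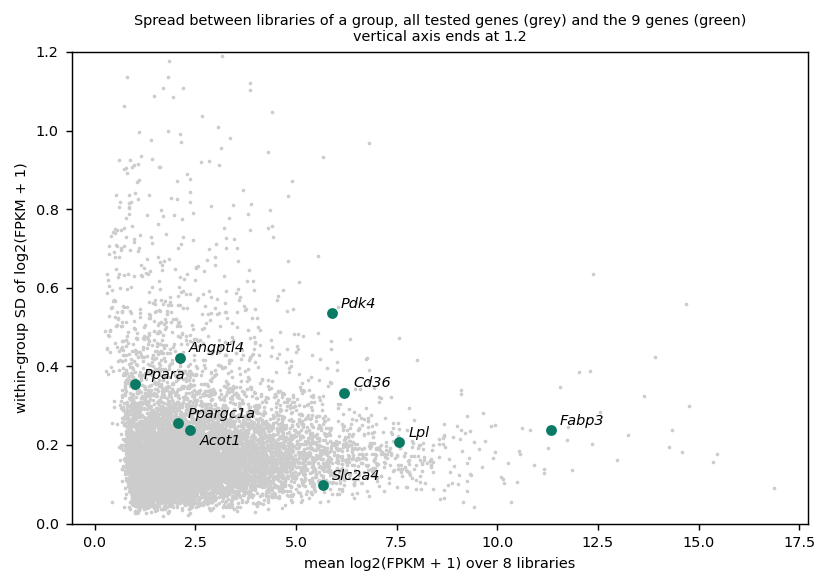
Within-group SD of log2(FPKM + 1) against mean log2(FPKM + 1) for the tested genes (grey) and the 9 genes (green); the vertical axis ends at 1.2, so genes with larger SD are not drawn. Pdk4 and Angptl4 lie high for their level, at 0.535 and 0.42, and Slc2a4 lies low at 0.097.

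Of the 9 genes limma called 0 in each comparison, and 0 of 9 had an unadjusted p under 0.05, which 14.6%, 20.0% and 13.7% of all tested genes had. Across all tested genes 1.49% were called in WT-EAM against control, 3.09% in KO-EAM against WT-EAM and 1.37% in KO-EAM against control, a background against which 0 of 9 marks these genes out in no way. The median log2 change of the 9 genes was -0.19 in WT-EAM against control, where 6 of 9 were negative and the median of all tested genes was 0.084. It was 0.11 in KO-EAM against WT-EAM, with 4 of 9 negative and an all-gene median of -0.116, and -0.07 in KO-EAM against control, with 7 of 9 negative and an all-gene median of -0.03. Scaling by median ratios moved the all-gene median between genotypes to 0.004. These comparisons share libraries, the WT-EAM or control ones, so their values are not independent of each other.

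Angptl4 and Slc2a4 were lower in WT-EAM than in control without overlap, 2 of 9 genes, against 6.68% of all tested genes, and none was higher without overlap, against 24.6%. In KO-EAM against WT-EAM 0 of 9 genes had groups that did not overlap, against 22.6% of all tested genes lower and 2.58% higher. In KO-EAM against control Fabp3 alone was lower without overlap, against 22.4%, and none was higher, against 14.1%.

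In KO-EAM against control the fitted log2 changes ran from -0.555 for Pdk4 (SE 0.38, limma adjusted p = 0.556) to 0.385 for Ppara (SE 0.26, limma adjusted p = 0.554), both with overlapping groups. The intervals limit the size of change that these libraries leave room for. A 2-fold change of FPKM from the mean of the reference group was set on the log2(FPKM + 1) scale for each gene. A rise of that size lay inside the 95% interval for Ppara in all 3 comparisons and for Angptl4 in KO-EAM against WT-EAM. A fall of that size lay inside it for Angptl4 and Ppara in WT-EAM against control, for Pdk4 in KO-EAM against WT-EAM and for Pdk4 and Angptl4 in KO-EAM against control. For the other 6 genes a 2-fold change in either direction lay outside the interval in each comparison. These intervals are not adjusted for the number of genes.

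**Figure D3:**
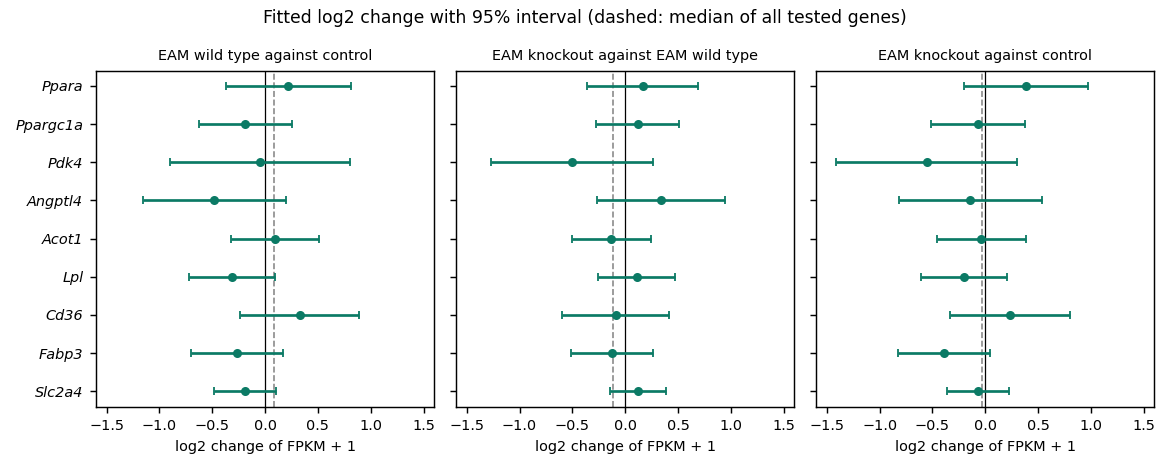
Fitted change of log2(FPKM + 1) with its 95% interval for the 9 genes in the 3 comparisons (limma, 8 libraries); the solid line is no change and the dashed line the median of all tested genes. Every interval crosses 0, and those of Pdk4 and Angptl4 are the widest in each panel.

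Heart muscle markers had fitted changes of like size. All 10 cardiomyocyte markers were negative in WT-EAM against control, the median being -0.21 and none passing. Set against 1000 summed FPKM of these markers, Fabp3 was 129 and 136 in control, 134, 112 and 141 in WT-EAM and 105, 104 and 154 in KO-EAM. On this scale Fabp3 in WT-EAM lay on both sides of the controls. KO-EAM 1 and KO-EAM 2 lay below both controls and KO-EAM 3 above them. Myl3, which is in the sum, is also among the genes with the closest profiles to Fabp3. The part of heart muscle content in the Fabp3 values was not tested. Slc2a4 on the same scale was 2.35 and 2.27 in control, 2.34, 2.41 and 2.33 in WT-EAM and 2.66, 2.53 and 2.59 in KO-EAM, so that each knockout library was above every other. That separation was not kept when Tcap, a marker that fell in the knockout from 2033 ± 216 to 899 ± 134 FPKM (SD, n = 3 each, limma adjusted p = 0.00546), was left out of the sum, which gave 2.54 to 2.68 in the other 5 libraries and 2.66 to 2.80 in the knockout. The choice of this scale was made after the values were seen.

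Partners and coregulators of the receptor also gave no call. Of 17 listed receptors, partners and coregulators 14 were tested (lowest limma adjusted p = 0.223, 0.265 and 0.292). Esrra, an orphan receptor that works with PGC-1α, was at 17.1 to 23.1 FPKM over all libraries, and Rxrg, a retinoid X receptor partner, at 11.8 to 16.6 FPKM. Lpin1, a phosphatidate phosphatase that also coactivates PPARα with PGC-1α, was uneven within groups. It was at 11.6 and 1.48 FPKM in control, at 7.15, 12.6 and 10.2 FPKM in WT-EAM and at 4.78, 18.2 and 4.48 FPKM in KO-EAM. Its lowest and highest libraries, control 2 and KO-EAM 2, were those of Ppara.

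Most other PPAR targets had small negative fitted changes in WT-EAM against control. Of 30 tested of 34 listed genes, 22 were negative, the median being -0.15 against 0.084 for all tested genes, and none passed (lowest limma adjusted p = 0.127). The most abundant were the fatty acid oxidation genes Ech1, Acadl and Eci1. Acadl, a long-chain acyl-CoA dehydrogenase, was at 349 and 299.8 FPKM in control, 221, 273 and 286 FPKM in WT-EAM and 237, 274 and 242 FPKM in KO-EAM. The EAM libraries of Acadl lay below both controls, without passing the test.

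Between genotypes Ucp2, a mitochondrial carrier that immune cells also express, passed the test. It was at 16.6, 18.1 and 16.2 FPKM in WT-EAM and at 11.9, 8.84 and 6.37 FPKM in KO-EAM, with 13.4 and 14.7 FPKM in control. The knockout libraries lay below all others, and the level fell by 0.87 (log2 scale, SE 0.185, limma adjusted p = 0.0403). The call was lost under 12 of 21 alternatives, among them leaving out any library but KO-EAM 1, scaling by median ratios and normalizing by quantiles. The median of the 30 genes was 0.009 between genotypes, with 14 negative.

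Genes of fatty acid uptake and lipase handling gave 1 call among 16 tested of 20 listed. Angptl2, a secreted relative of Angptl4 that does not share its role at the lipase, fell from 16.5 ± 0.773 FPKM in WT-EAM to 10.2 ± 1.44 FPKM in KO-EAM (SD, n = 3 each, log2 change -0.66, SE 0.12, limma adjusted p = 0.0268), a call lost under 9 of 21 alternatives, among them leaving out any EAM library but KO-EAM 1. The most abundant of the list were Got2, a mitochondrial aminotransferase also found at the cell surface, Dgat2, which makes triglyceride, and the apolipoprotein gene Apoe. Dgat2 was at 140.3 and 95.8 FPKM in control, 64.2, 71.7 and 74.8 FPKM in WT-EAM and 101, 96.3 and 103 FPKM in KO-EAM. All WT-EAM libraries of Dgat2 were below those of both other groups, and it did not pass in any comparison.

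The remaining 3 fuel lists had no call. Of the pyruvate dehydrogenase and pyruvate entry genes all 13 were tested (lowest limma adjusted p = 0.601, 0.225 and 0.409), among them Pdk2, the other abundant kinase of the complex, at 98.0 to 130.3 FPKM, and the subunit genes Pdhb and Pdha1. Of 22 genes of glucose, lactate and ketone uptake 19 were tested (lowest limma adjusted p = 0.436, 0.262 and 0.277), led by Bsg, the chaperone of the lactate carriers, and by Acat1 and Oxct1 of ketone use. Oxct1 was at 65.9 and 42.0 FPKM in control, 36.7, 68.6 and 63.3 FPKM in WT-EAM and 46.7, 81.5 and 67.1 FPKM in KO-EAM, with all groups overlapping. Of 11 acyl-CoA thioesterases other than Acot1 7 were tested (lowest limma adjusted p = 0.450, 0.195 and 0.251), with Acot13 and Acot7 the most abundant beside Acot2.

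**Figure D4:**
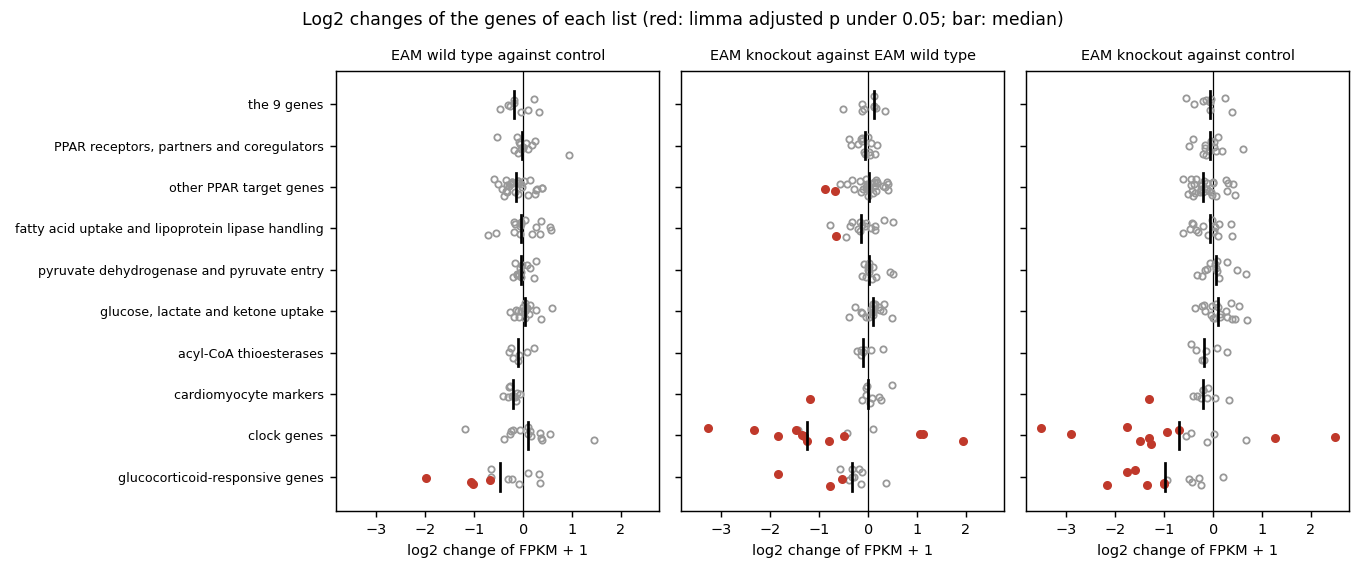
Log2 changes of FPKM + 1 of the tested genes of each list in the 3 comparisons; each circle is a gene, red where limma's adjusted p was under 0.05, and the black bar is the list's median. The fuel lists gather near 0, while clock genes reach down to -3.52.

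Glucocorticoid-responsive and clock genes, 2 programmes that also reach Pdk4 in heart muscle, differed between the groups. Of 12 tested glucocorticoid-responsive genes 4 fell in WT-EAM against control (Zbtb16, Fkbp5, Sult1a1 and Map3k6), with a median of -0.48, 3 fell between genotypes (Tsc22d3, Per1 and Map3k6) and 6, these same genes together, fell in KO-EAM against control. Between genotypes the call of Tsc22d3 was lost under 12 of 21 alternatives and that of Map3k6 under 13 of 20. Per1, which is in both the glucocorticoid and the clock list, kept its call under all 21. In KO-EAM against control Tsc22d3 was again lost under 12 of 21, and Sult1a1 under 3 of 21. In WT-EAM against control Sult1a1 was lost under 12 of 21. Zbtb16, a transcription factor strongly induced by glucocorticoids, was at 13.9 and 7.45 FPKM in control, 1.54, 1.96 and 2.04 FPKM in WT-EAM and 1.39, 1.90 and 1.23 FPKM in KO-EAM (log2 change -1.98 in WT-EAM against control, SE 0.22, limma adjusted p = 0.00479). Fkbp5, a chaperone of the glucocorticoid receptor, went from 3.92 ± 0.399 FPKM (SD, n = 2) to 1.42 ± 0.33 FPKM (SD, n = 3, limma adjusted p = 0.00898). Without control 1 only Zbtb16 of the 4 genes that fell in WT-EAM against control passed. Of 15 tested clock genes 3 rose (Arntl, Npas2 and Nfil3) and 9 fell (Per1, Per2, Per3, Cry2, Nr1d2, Dbp, Tef, Bhlhe41 and Ciart) in KO-EAM against WT-EAM, and 2 rose and 8 fell, Hlf among them, in KO-EAM against control. Between genotypes Cry2 lost its call under 14 of 20 alternatives and Nfil3 under 8 of 21. Per3, Cry2, Bhlhe41, Ciart and Nfil3 did not pass without the 3 libraries high in atrial transcripts, where KO-EAM 3 is the only knockout library. In KO-EAM against control Hlf lost its call under 8 of 20, Ciart under 5 of 20, Tef under 4 of 21 and Npas2 under 3 of 20. Per3 lost it there under 1 of 20 and Nr1d2 under 1 of 21. Dbp, a clock output factor, was at 32.5, 30.3 and 27.1 FPKM in WT-EAM and 3.19, 1.80 and 1.76 FPKM in KO-EAM, against 15.4 and 34.2 FPKM in control. Pdk4 and Angptl4 did not pass in either comparison, and the part of these programmes in their levels was not tested. The sample labels used here give a day but no time of day. Genotype or EAM and time of day at collection therefore cannot be told apart, for clock genes or any other gene that varies over the day.

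Markers of other cell types that use these genes were also uneven. The defining fat cell gene Adipoq was at 0 FPKM in both controls and WT-EAM 1, at 4.2 and 0.258 FPKM in WT-EAM 2 and 3, and at 10.6, 1.96 and 0.0764 FPKM in KO-EAM 1, 2 and 3. KO-EAM 1 and WT-EAM 2, with the most Adipoq, had the second lowest and the lowest Lpl level, and Pdk4 and Angptl4 were lowest in KO-EAM 1. Pdk4 was at 65.5 FPKM in WT-EAM 2. KO-EAM 2, next in Adipoq, had Lpl at 208 FPKM and Angptl4 at 4.17 FPKM. These libraries are also the 3 high in atrial transcripts, so fat and atrial tissue cannot be told apart in them. The part of fat cells in these values was not tested. Over the whole list of 9 adipocyte markers, 8 of them tested and none called, summed FPKM was 117 to 127 in control, 129 to 171 in WT-EAM and 97.1 to 202 in KO-EAM. Much of that sum is Fabp4, at 74.7 to 152 FPKM, which capillaries also express. Brown fat markers had no call among 3 tested of 5, with Ucp1 at 0 to 4.95 FPKM.

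Macrophages express Lpl and Cd36. Of 8 tested macrophage markers 2 rose in WT-EAM against control and 6 fell between genotypes. The rise of Lyz2 was lost under 11 of 21 alternatives. Of the falls, C1qa was lost under 2 and Cd68 under 3 of 21. C1qb was lost under 7, Lyz2 under 8 and C1qc under 9 of 21, and Adgre1 under 9 of 20. In each case these include the fit without the 3 libraries high in atrial transcripts, in which KO-EAM 3 is the only knockout library. The summed FPKM of the 10 macrophage markers was 251 to 292 in control, 424 to 509 in WT-EAM and 230.3 to 289.9 in KO-EAM. These sums did not overlap between WT-EAM and either other group. Lpl and Cd36 overlapped between genotypes, and the part of macrophages in their levels was not tested. Endothelial markers, summed at 232 to 250.4, 295 to 328 and 299.8 to 304 FPKM in the same order, had a single call, Kdr, which rose in KO-EAM against control and was lost under 8 of 21 alternatives. Fibroblast markers rose at 1 of 8 genes in WT-EAM against control and fell at 3 of 8 between genotypes, where Dcn was lost under 11, Col3a1 under 4 and Lum under 3 of 21 alternatives. Of the skeletal muscle markers only Acta1, which the heart also expresses, was tested. It was at 5148 and 5727 FPKM in control, 3315, 3193 and 4256 FPKM in WT-EAM and 1393, 1511 and 2614 FPKM in KO-EAM, and fell in KO-EAM against control (log2 change -1.62, limma adjusted p = 0.0197), a call lost under 8 of 21 alternatives. The other skeletal muscle markers stayed at or below 1.38 FPKM in every library. Of 5 erythrocyte genes Hbb-bt rose between genotypes, though its reads are hard to tell from those of Hbb-bs. In KO-EAM against control Hbb-bt rose and Hbb-bs fell, calls lost under 7 and 11 of 21 alternatives, and the other 3 were not called. The part of these cell types in the 9 genes' values was not tested.

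The profiles closest to the remaining members were ranked in the same way. For Pdk4 they were those of Gm17546, Ccdc115 and Yae1d1 (Pearson r 0.95, 0.94 and 0.92 over 8 libraries), and for Angptl4 Hist1h2bh, Zfp865 and E130311K13Rik (0.89, 0.88 and 0.85). Fabp3 was closest to Mrpl14, Gm12167 and Myl3, a ventricular myosin light chain gene (0.98, 0.97 and 0.97). Lpl was closest to Gm29246, Nbn and Homer2 (0.94, 0.94 and 0.92), and Cd36 to Msantd4, Riok3 and Fra10ac1 (0.97, 0.97 and 0.96). Acot1 was closest to Synpo2, Ncs1 and Sap30 (0.96, 0.95 and 0.905), and Slc2a4 to Qrsl1, Fbxo31 and Slc47a1 (0.98, 0.96 and 0.95). No member was among the 3 closest of another, and each value is the best of 10393 over 8 libraries, so it is a description only.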

How the data were processed

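The deposited table gives FPKM values for 34745 genes in 8 heart libraries, per the file headers. The submitters' processing notes list, with no role or order, mm10, edgeR, HISAT2 2.0.4 and StringTie 1.3.3b. Annotation release, filters and strand setting are not stated, so overlapping genes cannot be told apart. Groups came from the labels.

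Testing covered the 10393 genes that reached 1 FPKM in 2 or more libraries and left out 24352. limma 3.58.1 (R 4.3.3) was applied to log2(FPKM + 1), two-sided, with a mean-variance trend, all 3 groups in 1 fit with 5 residual degrees of freedom, and Benjamini-Hochberg adjustment over all tested genes at 0.05. Duplicate symbols in lists took the row with the highest mean. The procedure was tested on simulated data.

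Depth came from steps of 1 fragment in genes with 1 annotated transcript and the same coordinates in GENCODE M21 (GRCm38). At least 99.6% of the low values were within 0.05 of a whole fragment number. Counting errors cover counting only. Promoter windows came from RefSeq (GRCm38.p6).

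The members, gene lists and naming rule were chosen with earlier results of these data known. Named were all members, the called genes of each pathway list, up to 3 of its most abundant genes, and the 3 genes closest to each member. A called gene among the other PPAR targets is not reported here. Adipoq, Ucp1 and the other single marker genes were named after their values were seen. Alternatives covered pseudocount, filter, scaling, trend, library weights, samples fitted, replicate block and each library left out. Those on atrial transcripts were added after the data were seen.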

Additional observations from a re-analysis of the deposited data

How the results depend on the processing

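No member passed under any alternative it was fitted in, which was 21 for 5 members, 20 for Angptl4, Ppargc1a and Acot1 and 19 for Ppara, the lowest limma adjusted p being 0.117 (Fabp3, replicate block, KO-EAM against control). Of 552 member changes refitted, 513 kept their direction and 39 changed it, none with a call; the cause was not tested. In WT-EAM against control the reversed log2 changes were 0.141 (Fabp3) and -0.0252 (Acot1) with quantile normalization, -0.023 (Acot1) with the replicate block, and 0.26 (Pdk4), -0.0576 (Ppara) and 0.000586 (Fabp3) with the atrial score. Between genotypes they were 0.0668 (Cd36) and 0.0351 (Fabp3) with median ratios, 0.0422 (Cd36) and 0.000691 (Acot1) with quantile normalization, -9.62e-05 (Ppara) and 0.0185 (Cd36) with library weights, and 0.0968 (Fabp3) and 0.157 (Acot1) without the 3 libraries high in atrial transcripts. In KO-EAM against control they were 0.00782 (Lpl) and 8.38e-05 (Slc2a4) with quantile normalization, 0.0237 (Acot1) and 0.00323 (Slc2a4) with equal sums outside mitochondrial genes, 0.335 (Angptl4) and 0.33 (Acot1) without the 3 atrial-rich libraries, and 0.182 (Angptl4) and 0.283 (Acot1) with the atrial score. Leaving out each library in turn gave ranges that crossed 0 in WT-EAM against control for Pdk4 (-0.368 to 0.268), Ppara (-0.0862 to 0.525), Ppargc1a (-0.388 to 0.0133) and Acot1 (-0.00733 to 0.197). Between genotypes they did so for Ppargc1a (-0.0661 to 0.219), Cd36 (-0.243 to 0.128), Fabp3 (-0.283 to 0.0187) and Acot1 (-0.315 to 0.00955), and in KO-EAM against control for Angptl4 (-0.459 to 0.178), Ppargc1a (-0.271 to 0.131), Cd36 (-0.0579 to 0.531) and Acot1 (-0.221 to 0.104).

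Calls over all genes moved more, from 155 in WT-EAM against control (141 up and 14 down), 321 between genotypes (30 up and 291 down) and 142 in KO-EAM against control. In that order they were 91, 180 and 73 without a filter, 54, 160 and 67 at a mean FPKM of at least 5, and 386, 503 and 343 with library weights. The first 2 were 93 and 131 with median ratios (74 up and 19 down, 46 up and 85 down) and 75 and 155 with quantile normalization (58 up and 17 down, 57 up and 98 down). Equal sums outside mitochondrial genes gave 210 between genotypes, and a fit of only the groups compared 99 in WT-EAM against control. Without the 3 atrial-rich libraries 72 were called between genotypes and 61 in KO-EAM against control. With the atrial score 54 were called in WT-EAM against control and 51 in KO-EAM against control. Leaving out libraries gave 15 to 135, 101 to 250 and 35 to 177 in the same order, the lowest without control 1, WT-EAM 1 and control 2. A lone library left in a group was assumed to vary like the other groups. KO-EAM 3 was alone without the atrial-rich libraries, and a control was alone when the other was left out.

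The labels do not say that a replicate number marks a shared animal or batch: deviations of same-numbered libraries correlated at -0.197 to 0.355, and the replicate block gave 119, 253 and 122 calls and none among the members. Depth limits Ppara most, at 21 to 106 fragments.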

Other observations

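The libraries differed in members of the fuel programme that did not follow the groups. Slc25a42, a mitochondrial carrier of coenzyme A named here after its values were seen, was at 7.31 and 2.61 FPKM in control, 2.70, 7.10 and 3.21 FPKM in WT-EAM and 3.24, 8.08 and 6.74 FPKM in KO-EAM. Gpam, the first enzyme of glycerolipid synthesis, also named after its values were seen, was at 10.2 and 5.45 FPKM in control, 4.66, 11.9 and 8.19 FPKM in WT-EAM and 6.92, 15.2 and 9.40 FPKM in KO-EAM. Both genes were high in WT-EAM 2 and KO-EAM 2 and lower in control 2 than in control 1, the order also seen for Lpin1 and Ppara.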
